A study of Rattus norvegicus with 17 samples.

Results

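The chemokine system of the meibomian gland (MG), the oil gland of the eyelid, was described from the 53 genes of 17251 in the deposited table whose symbols begin as a chemokine (Ccl, Cxcl, Xcl, Cx3cl), a chemokine receptor (Ccr, Cxcr, Xcr, Cx3cr) or an atypical chemokine receptor (Ackr) followed by a digit. Of the 53, 52 are described, namely 34 ligands, 15 receptors and 3 atypical receptors. Symbol alone chose them and no measured value entered the rule, but members were chosen with earlier results of these data known. Of these, 36 reached the minimum for testing, set at 1 TPM in at least 3 rats, with 26 ligands, 7 receptors and the 3 atypical receptors. The remaining 16 lay below it. At the edge, Ccr6 passed with 1.13, 1.08 and 1.07 TPM in 3 rats, while Cxcl11 and Ccl12 exceeded 1 TPM in 1 rat each and the other 14 untested members in none.

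RNA came from dissected MG of 17 female rats, 10 to 12 weeks old, of the Sprague-Dawley strain. WT rats and P1.hMR rats, which carry the human mineralocorticoid receptor gene NR3C2 under its own P1 promoter, were studied without irradiation (4 Control WT and 5 Control P1.hMR rats) or after UVB on the eyelids for 5 days (3 UVB WT and 5 UVB P1.hMR rats). The transgene is driven in every tissue where that promoter is active and not in the MG alone, and the controls of each genotype were not irradiated. The methods count eyes rather than rats for the irradiated groups. The paper's reporting summary states that both eyes of an animal, where used, were pooled into a single sample. The labels do not say which samples were pooled. Each sample is called a rat here, so the p-values measure the spread between these samples. NR3C2 was listed at 0 in all WT rats and ranged from 5.31 to 9.31 TPM in the P1.hMR rats. Defining meibocyte genes were high in every group, with summed levels of 8 such genes (Awat2, Awat1, Elovl3, Elovl4, Pparg, Soat1, Far2 and Plin2) between 14600 and 22400 TPM, and so was skeletal muscle of the eyelid, between 1420 and 3200 TPM over 5 genes.

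Chemokines are small secreted proteins that bind to the matrix and to vessel walls and guide leukocytes carrying the matching G protein-coupled receptor. CC ligands mainly draw monocytes, lymphocytes and eosinophils, while CXC ligands with a glutamate-leucine-arginine motif draw neutrophils through Cxcr2. Atypical receptors bind ligands without G protein signalling and clear them from tissue. In skin and ocular surface epithelium, UVB is a known trigger of chemokine release by keratinocytes, fibroblasts and resident myeloid cells.

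Values are TPM, a scaled share of each sample's transcripts corrected for gene length, so that levels can be compared between genes. Differences are on the log2(TPM + 1) scale, which understates the change of low genes. A gene was called changed at an adjusted p under 0.05 (limma, Benjamini-Hochberg over 13105 tested genes) if its log2 fold change was also 0.5 or more in either direction. Each error after ± is an SD and each error of a log2 fold change is a standard error (SE). Depth cannot be read from TPM, and near-identical chemokine genes can share reads that the quantification divides between them, so values of close family members are uncertain to that extent. In bulk tissue, fewer cells of a type and less RNA per cell cannot be told apart.

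A few ligands carried most of the chemokine signal of the gland. By mean level over all rats, Ccl21, the ligand of Ccr7 made by lymphatic endothelium, stood first at 142.0 TPM, followed by Cxcl14, a chemokine of epithelium, at 138.0 TPM and Ccl6, a rodent CC ligand of myeloid cells, at 77.3 TPM. They made up 27.4%, 26.7% and 14.9% of the summed mean level of all ligands. Cxcl16, the membrane-bound ligand of Cxcr6, at 50.3 TPM and Cxcl12, the stromal ligand of Cxcr4, at 34.0 TPM came next. The first pair had ranges that overlapped widely, from 74.97 to 228.11 TPM for Ccl21 and from 76.48 to 235.1 TPM for Cxcl14, so their order does not exceed the spread.

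**Figure D1:**
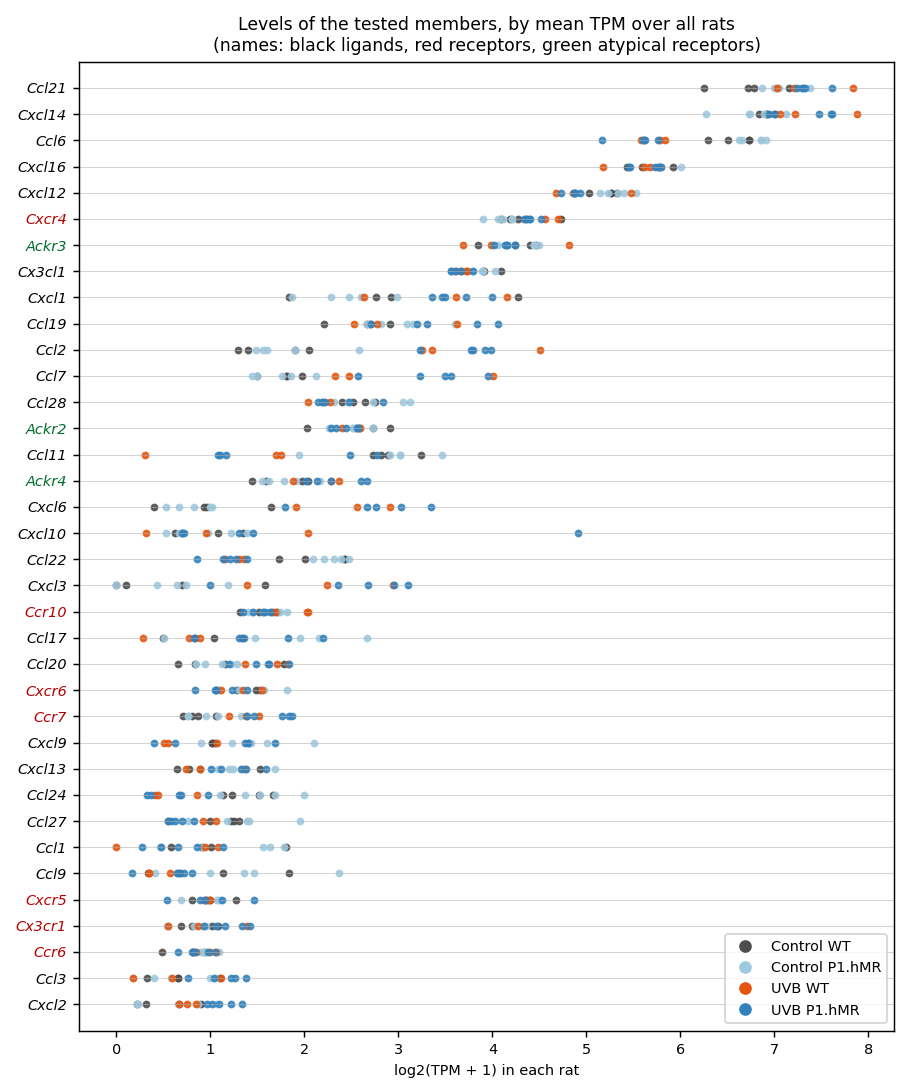
The plot gives log2(TPM + 1) of the 36 tested members in each of 17 rats (points, coloured by group), ordered by mean TPM over all rats. Ccl21, Cxcl14 and Ccl6 lie at the top, Cxcr4 and Ackr3 stand far above the other receptors, and 1 UVB P1.hMR rat lies far to the right for Cxcl10.

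Receptors were low apart from a single pair. Cxcr4, the receptor of Cxcl12, averaged 19.2 TPM and Ackr3, the atypical receptor that removes Cxcl12, averaged 18.0 TPM. Ackr2, which clears inflammatory CC ligands, averaged 4.73 TPM and Ackr4, which clears Ccl19 and Ccl21, averaged 3.17 TPM. Ccr10, the receptor of the epithelial ligands Ccl27 and Ccl28, followed at 2.1 TPM and Cxcr6 at 1.51 TPM. Every other receptor averaged less. The 8 untested receptors (Ccr1l1, Ccr3, Ccr4, Ccr8, Ccr9, Cxcr1, Cxcr3 and Xcr1) were under 1 TPM in every rat. Cxcr1, a neutrophil receptor, was listed at 0 in all UVB rats and reached 0.1 TPM in the controls. The untested ligands were Ccl12, Ccl25, Ccl26, Ccl4, Ccl5, Cxcl11, Cxcl17 and Xcl1. Ccr1, Ccr2, Cxcr2, Ackr1 and Cxcl5 were not analysed here.

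UVB changed 10 of the 36 tested members in WT rats, 6 higher and 4 lower, which is 27.8% against 7.91% of all genes tested. In P1.hMR rats it changed 14 of 36, 9 higher and 5 lower, which is 38.9% against 10.8%. Among all tested genes, 3.92% were called higher and 3.98% lower in WT rats, and 5.05% and 5.71% in P1.hMR rats. The members' median log2 fold change was 0.02 in WT rats, beside 0.01 over all genes, and -0.05 in P1.hMR rats, beside -0.02, with members moving in both directions. Without UVB WT rat 1, 6 members were called in WT rats. These counts are a description, since 4 members passed the minimum through UVB rats alone (Cx3cr1, Cxcl2, Cxcl3 and Cxcl6) and 5 through control rats alone (Ccl1, Ccl24, Ccl27, Ccl9 and Cxcr5). The groups did not overlap for 10 members in WT rats, beside 26.6% of all genes, and for 10 in P1.hMR rats, beside 27.2%. For each of these the two-sided exact permutation test gave the smallest p it allows, which is 0.0571 for 3 against 4 rats, so that WT rats alone could not pass 0.05, and 0.00794 for 5 against 5.

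The genes called in both genotypes were Ccl2, Ccl7, Cxcl3, Cxcl6 and Ccr7, which rose, and Ccl6, Ccl11, Ccl22 and Ccl24, which fell. These 9 were 90.0% of the WT calls and 64.3% of the P1.hMR calls. Ccl21 was called in WT rats alone, and Ackr4, Ccl27, Cxcl1, Cxcl14 and Cxcl2 in P1.hMR rats alone. All 5 of the latter had the same sign in WT rats, and none had an unadjusted interaction p under 0.05 in limma.

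**Figure D2:**
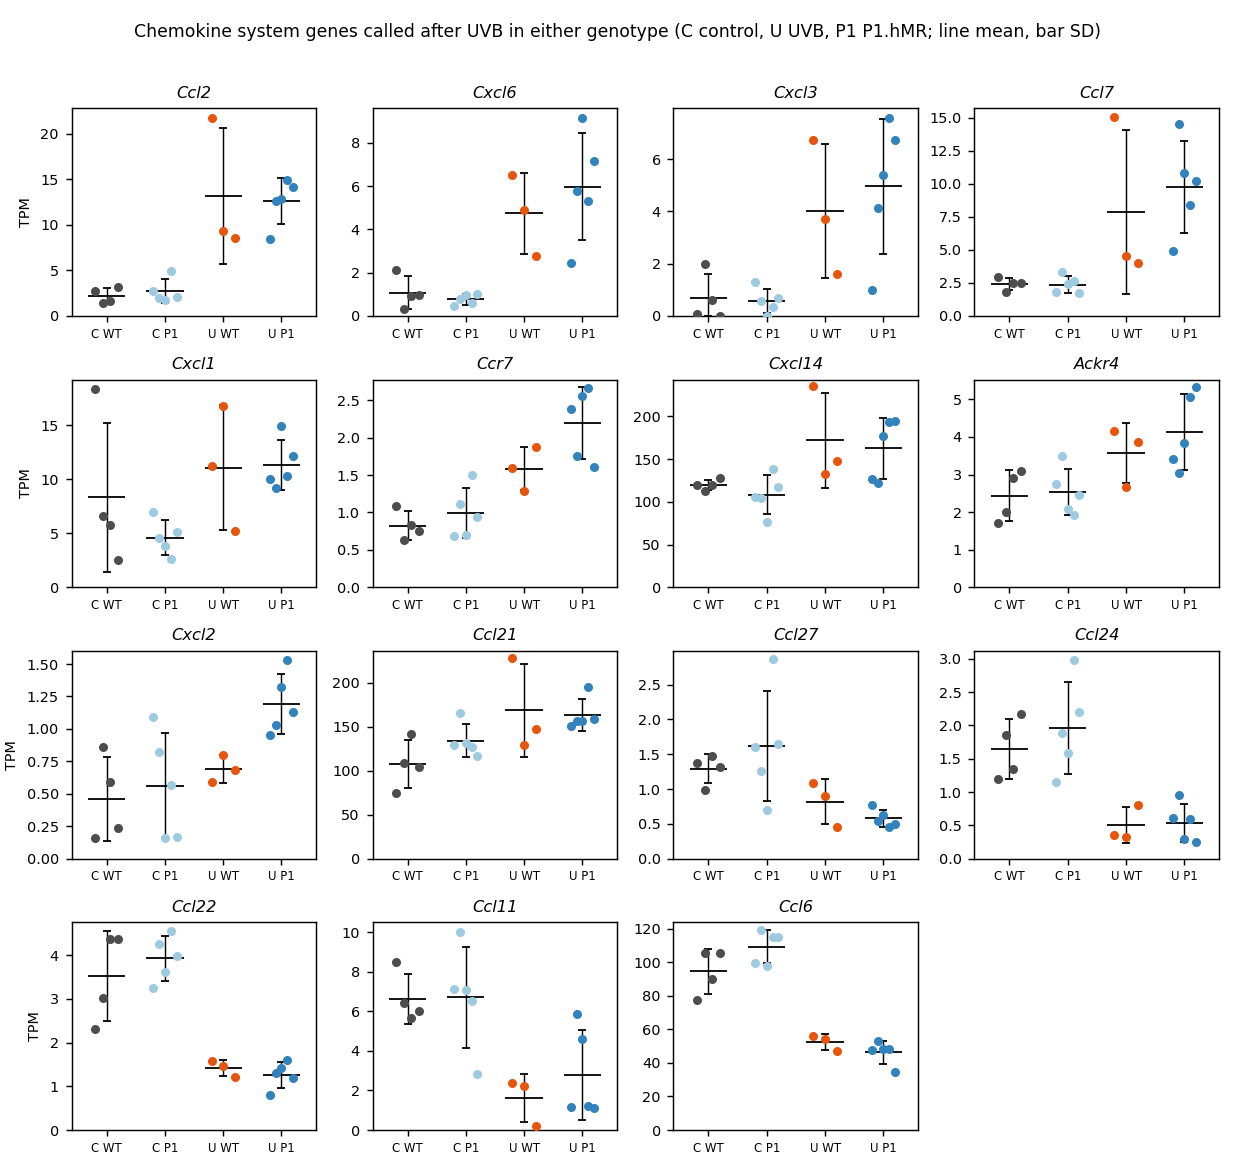
The panels plot TPM from 0 in each rat for the 15 members called after UVB in either genotype, ordered by log2 fold change in P1.hMR rats, with the group mean as a line and the SD as a bar (cut at 0 where it would fall below). UVB rats stand above all control rats for Ccl2, Cxcl6 and Ccl7 and below all control rats for Ccl6, Ccl22 and Ccl24.

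Monocyte-attracting CC ligands rose, and Ccl2 had the largest change of the tested members on the log2(TPM + 1) scale in both genotypes. It did not exceed that of Cxcl3 in either genotype, or that of Cxcl6 in P1.hMR rats, by more than the SE. The rank also rests on the scale, which understates low genes. In P1.hMR rats mean TPM went from 0.572 to 4.96 for Cxcl3 and from 0.762 to 5.98 for Cxcl6, against 2.69 to 12.6 for Ccl2. Ccl2, which recruits monocytes through Ccr2, stood at 2.72, 1.45, 1.63 and 3.13 TPM in Control WT rats and at 21.77, 9.27 and 8.51 TPM in UVB WT rats. In Control P1.hMR rats it was at 2.72, 1.95, 1.79, 4.96 and 2.04 TPM, and in UVB P1.hMR rats at 8.41, 12.64, 12.89, 14.88 and 14.19 TPM. The lowest UVB rat of either genotype was above the highest control rat. Its log2 fold change was 2.05 (SE 0.3, adjusted p = 0.000385, limma with Benjamini-Hochberg adjustment) in WT and 1.92 (SE 0.25, adjusted p = 3.06e-05, same test) in P1.hMR rats.

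Ccl7, a further monocyte attractant encoded next to Ccl2 on chromosome 10, stood at 2.94, 1.81, 2.49 and 2.52 TPM in Control WT rats and at 15.06, 4.56 and 4.01 TPM in UVB WT rats. Control P1.hMR rats had 1.82, 3.36, 2.39, 2.62 and 1.71 TPM, against 4.93, 14.52, 10.82, 8.4 and 10.24 TPM in UVB P1.hMR rats. UVB and control rats did not overlap in either genotype, although UVB WT rat 1 alone set much of the WT mean. Relative to control it had a log2 fold change of 1.16 (SE 0.34, adjusted p = 0.0237, limma with Benjamini-Hochberg adjustment) in WT and 1.63 (SE 0.28, adjusted p = 0.000333, same test) in P1.hMR rats. Without UVB WT rat 1 the WT value was 0.63, and without Control WT rat 2 it was 1.07, and neither was called. The third member of the monocyte list, Ccl12, encoded in the same cluster, was under 0.5 TPM in all rats but 1.

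Neutrophil-attracting CXC ligands were also higher. All 4 measured members, Cxcl1, Cxcl2, Cxcl3 and Cxcl6, which act on Cxcr2, were called higher in P1.hMR rats, and Cxcl3 and Cxcl6 in WT rats. Of these 4, Cxcl2, Cxcl3 and Cxcl6 passed the minimum for testing through UVB rats alone, so their calls are a description. The summed level of the 4 ran from 3.75 to 20.7 TPM in Control WT and from 10.3 to 26.2 TPM in UVB WT rats. In P1.hMR rats it ran from 4.15 to 9.74 TPM without UVB and from 14.4 to 30.8 TPM with it. The sums of treated and control rats overlapped in WT and were apart in P1.hMR rats. In RefSeq order these genes sit in 1 cluster on chromosome 14, with Cxcl2 and Cxcl1 side by side and Cxcl3 and Cxcl6 close by.

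The 250 bases upstream of the annotated start are shown for the 3 of these 4 genes that RefSeq promoters (build GRCr8) matched, because these genes were all called higher in P1.hMR rats (in WT rats Cxcl6 alone of the 3) and each window held the NF-kappaB consensus. They are Cxcl1 (chr14:17479322-17479571, minus strand), Cxcl2 (chr14:17467256-17467505, minus strand) and Cxcl6 (chr14:17596418-17596667, minus strand), each written 5′ to 3′ towards the start, with the consensus matches in capitals. Within each run of capitals 2 matches overlap, shifted by a single base.
Cxcl1: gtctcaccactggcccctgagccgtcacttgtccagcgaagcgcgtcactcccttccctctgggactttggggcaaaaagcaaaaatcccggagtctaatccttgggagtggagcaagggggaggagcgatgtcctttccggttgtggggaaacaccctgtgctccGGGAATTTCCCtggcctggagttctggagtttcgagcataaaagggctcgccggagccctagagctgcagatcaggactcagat
Cxcl2: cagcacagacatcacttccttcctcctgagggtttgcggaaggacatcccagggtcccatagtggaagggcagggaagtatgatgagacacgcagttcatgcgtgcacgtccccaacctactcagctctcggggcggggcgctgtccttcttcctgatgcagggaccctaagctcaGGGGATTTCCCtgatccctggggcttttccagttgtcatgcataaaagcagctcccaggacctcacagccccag
Cxcl6: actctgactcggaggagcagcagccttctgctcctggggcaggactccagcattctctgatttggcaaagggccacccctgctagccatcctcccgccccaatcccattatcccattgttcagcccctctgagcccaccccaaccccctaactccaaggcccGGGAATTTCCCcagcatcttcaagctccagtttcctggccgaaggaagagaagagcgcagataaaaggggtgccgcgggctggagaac

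The first base of the matches lay 84 and 83 bases before the start in Cxcl1, 74 and 73 in Cxcl2 and 88 and 87 in Cxcl6. Both strands were searched. Across 27457 promoters of this length 3.52% held the consensus, against 8 of the 40 matched members, namely Cxcl1, Cxcl2, Cxcl6, Ccl20, Ccl9, Cxcl10, Cxcl11 and Ccr3. Of these 8, Cxcl1, Cxcl2 and Cxcl6 were called after UVB, and Ccl20, Ccl9 and Cxcl10 were tested and not called. The other matched members called higher in either genotype, Ccl7, Ccl21, Ackr4 and Cxcl14, held no consensus match in their windows. A looser pattern, GGG and CC parted by any 5 bases, which every consensus match also meets, was in 52.5% of members and 43.5% of all promoters. A match describes letters and not a bound site. Not matched to a promoter were Ccl11, Ccl2, Ccl3, Ccl4, Ccl5, Ccr10, Ccr4, Ccr7, Ccr8, Ccr9, Cxcl3 and Cxcr5.

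Cxcl6 stood at 2.12, 0.32, 0.91 and 0.95 TPM in Control WT rats and at 6.52, 4.91 and 2.77 TPM in UVB WT rats. The P1.hMR values were 0.44, 0.77, 0.99, 0.59 and 1.02 TPM without UVB and 2.46, 5.78, 9.15, 5.33 and 7.18 TPM with it. No UVB rat fell within the control range. Its log2 fold change was 1.48 (SE 0.32, adjusted p = 0.00468, limma with Benjamini-Hochberg adjustment) in WT and 1.91 (SE 0.27, adjusted p = 5.28e-05, same test) in P1.hMR rats.

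Cxcl3 was listed at 0 in 1 rat of each control group, with 0.07, 1.99 and 0.62 TPM in the other Control WT rats and 1.28, 0.56, 0.35 and 0.67 TPM in the other Control P1.hMR rats. UVB WT rats had 6.71, 3.71 and 1.62 TPM and UVB P1.hMR rats 0.99, 4.13, 5.4, 7.56 and 6.73 TPM. The lowest UVB rat lay inside the control range in both genotypes. The fitted log2 fold change was 1.6 (SE 0.48, adjusted p = 0.0266, limma with Benjamini-Hochberg adjustment) in WT and 1.81 (SE 0.4, adjusted p = 0.00197, same test) in P1.hMR rats. The WT call depended on single rats, since the value became 1.43 without Control WT rat 1, 1.4 without Control WT rat 4, 1.22 without UVB WT rat 1 and 1.57 without UVB WT rat 2, none of them called.

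Cxcl1 varied widely without UVB in WT rats, at 18.38, 6.59, 5.76 and 2.56 TPM, and UVB WT rats at 11.25, 16.76 and 5.21 TPM lay within that range. P1.hMR rats were apart, at 6.93, 4.55, 3.85, 2.64 and 5.09 TPM without UVB and 10.02, 9.22, 14.97, 10.31 and 12.17 TPM with it. The highest Cxcl1 value of all 17 rats was thus in a control rat, Control WT rat 1. On the log2 scale the change was 0.52 (SE 0.43, adjusted p = 0.418, limma with Benjamini-Hochberg adjustment) in WT and 1.16 (SE 0.36, adjusted p = 0.0166, same test) in P1.hMR rats. The WT value ran from 0.15 without Control WT rat 4 to 0.96 without Control WT rat 1. The difference between these responses was 0.65 with a 95% interval from -0.54 to 1.83 (limma interaction, adjusted p = 0.867).

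Cxcl2 was the lowest of the 4, at 0.16, 0.86, 0.59 and 0.24 TPM in Control WT and 0.59, 0.8 and 0.68 TPM in UVB WT rats. It was at 1.09, 0.82, 0.16, 0.57 and 0.17 TPM in Control P1.hMR and at 0.95, 1.03, 1.32, 1.53 and 1.13 TPM in UVB P1.hMR rats. The groups overlapped in both genotypes. In P1.hMR rats the log2 fold change was 0.52 (SE 0.17, adjusted p = 0.0211, limma with Benjamini-Hochberg adjustment), close to the threshold of 0.5, and in WT rats it was 0.23 (adjusted p = 0.44, same test). The P1.hMR value was 0.42 without Control P1.hMR rat 3, 0.43 without Control P1.hMR rat 5, 0.5 without UVB P1.hMR rat 3 and 0.47 without UVB P1.hMR rat 4, and was not called in these fits.

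Some markers of the cells that these ligands attract were also higher, and their part in the changes was not tested. Of 10 monocyte and macrophage genes, 6 (Cd163, Mrc1, Cd14, C1qa, C1qb and C1qc) were called higher after UVB in each genotype, with Cd163, a scavenger receptor of macrophages, rising from 0.97 ± 0.37 TPM (n = 4) to 11.2 ± 4.93 TPM (n = 3) in WT and from 1.01 ± 0.56 to 11.7 ± 3.41 TPM (n = 5 each) in P1.hMR rats. The other 4 were not called, with log2 fold changes in WT and P1.hMR rats of -0.54 and -0.38 for Lyz2, -0.36 and -0.29 for Cd68, 0.02 and -0.12 for Csf1r and 0.06 and -0.19 for Adgre1. The summed level of the 10 genes overlapped between all groups, from 188.0 to 513.0 TPM in Control WT, 187.0 to 450.0 in Control P1.hMR, 228.0 to 372.0 in UVB WT and 318.0 to 440.0 TPM in UVB P1.hMR rats. Of 8 neutrophil genes 3 were tested. Csf3r, the granulocyte growth factor receptor, was higher in both genotypes. It was at 0.12 ± 0.0497 TPM (n = 4) in Control WT and 1.12 ± 0.6 TPM (n = 3) in UVB WT rats. In P1.hMR rats it went from 0.234 ± 0.112 to 1.93 ± 0.637 TPM (n = 5 each). Csf3r was under 1 TPM in every control rat and passed the minimum through UVB rats alone, so its calls are a description. S100a9 was called in P1.hMR rats. The neutrophil granule gene Mpo never exceeded 0.66 TPM and Elane never exceeded 0.09 TPM. The summed neutrophil list ran from 1560 to 1920 TPM in controls and from 1840 to 2820 TPM in UVB rats, nearly all of it S100a8 and S100a9, which keratinocytes also express.

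Several CC ligands with other targets fell. Ccl6, abundant in every rat, stood at 77.5, 105.27, 90.03 and 105.45 TPM in Control WT rats and at 56.17, 54.03 and 46.89 TPM in UVB WT rats. Values were 99.64, 119.44, 97.48, 115.18 and 114.9 TPM in Control P1.hMR and 47.61, 53.3, 48.27, 48.11 and 34.78 TPM in UVB P1.hMR rats. Every UVB rat was below every control rat. UVB against control gave a log2 fold change of -0.83 (SE 0.13, adjusted p = 0.000525, limma with Benjamini-Hochberg adjustment) in WT and -1.23 (SE 0.11, adjusted p = 1.08e-06, same test) in P1.hMR rats. The responses differed by -0.39, with a 95% interval from -0.75 to -0.04, and this difference did not pass (adjusted p = 0.711, limma interaction with Benjamini-Hochberg adjustment).

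The upstream window of Ccl6 is shown as that of the abundant ligand that fell. It is Ccl6 (chr10:68883367-68883616, minus strand), RefSeq build GRCr8, and it held no NF-kappaB consensus, no AP-1 site TGANTCA and no interferon-stimulated response element (ISRE, taken as GAAA, any 2 bases and GAAA), so it has no capitals.
Ccl6: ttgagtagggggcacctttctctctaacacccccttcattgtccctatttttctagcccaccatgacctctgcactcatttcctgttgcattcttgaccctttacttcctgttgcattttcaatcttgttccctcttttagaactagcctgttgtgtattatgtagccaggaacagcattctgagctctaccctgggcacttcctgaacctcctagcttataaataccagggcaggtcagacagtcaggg

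Ccl22, a ligand of Ccr4 made by dendritic cells and macrophages, stood at 2.31, 3.01, 4.37 and 4.38 TPM in Control WT and at 1.57, 1.46 and 1.22 TPM in UVB WT rats. It was at 3.25, 4.25, 3.62, 4.56 and 3.99 TPM in Control P1.hMR and at 0.81, 1.31, 1.41, 1.61 and 1.19 TPM in UVB P1.hMR rats. The groups did not overlap in either genotype. The log2 fold changes were -0.88 (SE 0.16, adjusted p = 0.00168) and -1.13 (SE 0.13, adjusted p = 1.3e-05) by limma with Benjamini-Hochberg adjustment. Cd207, the langerin gene that defines Langerhans cells, fell alongside, from 19.5 ± 6.03 TPM (n = 4) to 8.24 ± 1.27 TPM (n = 3) in WT and from 22.1 ± 5.88 to 8.52 ± 1.26 TPM (n = 5 each) in P1.hMR rats. It was the 1 gene called lower among the 4 tested of the 5-gene Langerhans and dendritic list, in which Flt3 was called higher in P1.hMR rats. Flt3 was at 1.08 TPM at most in control rats and passed the minimum through UVB rats alone, so its call is a description. The summed list ran from 15.1 to 35.4 TPM in controls and from 10.2 to 14.6 TPM in UVB rats, most of it Cd207. The part of these cells in the fall of Ccl22 was not tested. Ccl17, which shares Ccr4 with Ccl22 and is encoded in the same cluster on chromosome 19, had log2 fold changes of -0.28 and -0.25 and was not called.

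The eotaxins Ccl11 and Ccl24, which draw eosinophils through Ccr3, were lower. Ccl11 stood at 8.48, 6.41, 5.64 and 6.04 TPM in Control WT and at 2.37, 2.24 and 0.23 TPM in UVB WT rats. In P1.hMR rats it was at 7.11, 10.0, 7.07, 6.52 and 2.83 TPM without UVB and at 1.14, 5.85, 4.6, 1.24 and 1.11 TPM with it. The WT groups were apart, whereas UVB P1.hMR rats 2 and 3 lay within the control range. The log2 fold change was -1.67 (SE 0.45, adjusted p = 0.0148, limma with Benjamini-Hochberg adjustment) in WT and -1.15 (SE 0.37, adjusted p = 0.022, same test) in P1.hMR rats. The WT value became -1.2 without UVB WT rat 3, and the P1.hMR value -1.0 without Control P1.hMR rat 2, -0.99 without UVB P1.hMR rat 1, -1.01 without rat 4 and -0.99 without rat 5 of that group, none of them called. Ccl11 lies beside Ccl7 in the cluster of Ccl2, so neighbours in 1 cluster were called in opposite directions.

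Ccl24 was at 1.19, 1.86, 1.35 and 2.17 TPM in Control WT and at 0.36, 0.33 and 0.81 TPM in UVB WT rats. Control P1.hMR rats had 1.15, 1.89, 1.58, 2.98 and 2.21 TPM and UVB P1.hMR rats 0.61, 0.96, 0.29, 0.59 and 0.25 TPM. All 9 control rats reached 1 TPM and no UVB rat did. Ccl24 thus passed the minimum for testing through control rats alone, so its calls are a description. The log2 fold changes were -0.82 (SE 0.2, adjusted p = 0.0103) and -0.93 (SE 0.17, adjusted p = 0.000469) by limma with Benjamini-Hochberg adjustment. Ccl26, the remaining eotaxin gene next to Ccl24 on chromosome 12, was listed at 0 in all rats but 1.

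The other inflammatory CC ligands gave no common direction. Ccl9, a rodent ligand next to Ccl6, had log2 fold changes of -0.58 in WT (adjusted p = 0.279, limma with Benjamini-Hochberg adjustment) and -0.72 in P1.hMR rats (adjusted p = 0.0679, same test). Ccl3 had -0.05 in WT and 0.49 in P1.hMR rats (adjusted p = 0.0689, same test) and was at 1.59 TPM at most. Ccl4 and Ccl5 were under 1 TPM in every rat.

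The Ccr7 axis, which leads dendritic cells and naive lymphocytes into lymphatics and lymph nodes, was higher at the receptor in both genotypes. Ccr7 stood at 1.09, 0.63, 0.83 and 0.75 TPM in Control WT and 1.6, 1.29 and 1.87 TPM in UVB WT rats. It was at 0.69, 1.12, 0.7, 1.5 and 0.94 TPM in Control P1.hMR and at 2.38, 1.76, 2.56, 2.66 and 1.61 TPM in UVB P1.hMR rats. The groups did not overlap within a genotype. The log2 fold change of Ccr7 was 0.5 (SE 0.16, adjusted p = 0.0302, limma with Benjamini-Hochberg adjustment) in WT and 0.68 (SE 0.13, adjusted p = 0.000607, same test) in P1.hMR rats. The WT value sat at the threshold and was not called without Control WT rat 2 (0.45), 3 (0.51) or 4 (0.48), nor without UVB WT rat 1 (0.5) or 3 (0.43).

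Ccl21, its abundant ligand, stood at 74.97, 108.79, 141.6 and 104.6 TPM in Control WT and 228.11, 129.62 and 147.4 TPM in UVB WT rats. In P1.hMR rats it was at 129.48, 165.63, 131.16, 126.85 and 116.13 TPM without UVB and at 150.54, 155.88, 156.61, 194.83 and 158.89 TPM with it. The groups overlapped in both genotypes. Relative to control it had a log2 fold change of 0.63 (SE 0.19, adjusted p = 0.0266, limma with Benjamini-Hochberg adjustment) in WT and 0.29 (SE 0.16, adjusted p = 0.161, same test) in P1.hMR rats, and their difference of -0.35 had a 95% interval from -0.87 to 0.18. The WT value was 0.48 without Control WT rat 1, 0.63 without Control WT rat 4 and 0.4 without UVB WT rat 1, and was not called in these fits. Ccl19, the second Ccr7 ligand, had log2 fold changes of 0.35 in both genotypes and was not called.

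Ackr4, which removes both ligands, stood at 1.72, 2.01, 2.92 and 3.1 TPM in Control WT and 4.17, 2.67 and 3.86 TPM in UVB WT rats. It was at 2.75, 3.48, 2.07, 1.92 and 2.45 TPM in Control P1.hMR and at 3.4, 3.05, 3.85, 5.05 and 5.34 TPM in UVB P1.hMR rats. All groups overlapped with their controls. In P1.hMR rats the log2 fold change was 0.53 (SE 0.16, adjusted p = 0.0142, limma with Benjamini-Hochberg adjustment), and in WT rats 0.42 (adjusted p = 0.134, same test). It fell under the threshold of 0.5 without Control P1.hMR rat 3 (0.49) or 4 (0.47) and without UVB P1.hMR rat 4 (0.47) or 5 (0.45). The other atypical receptors, Ackr2 and Ackr3, had log2 fold changes between -0.18 and -0.03 in the UVB comparisons.

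**Figure D3:**
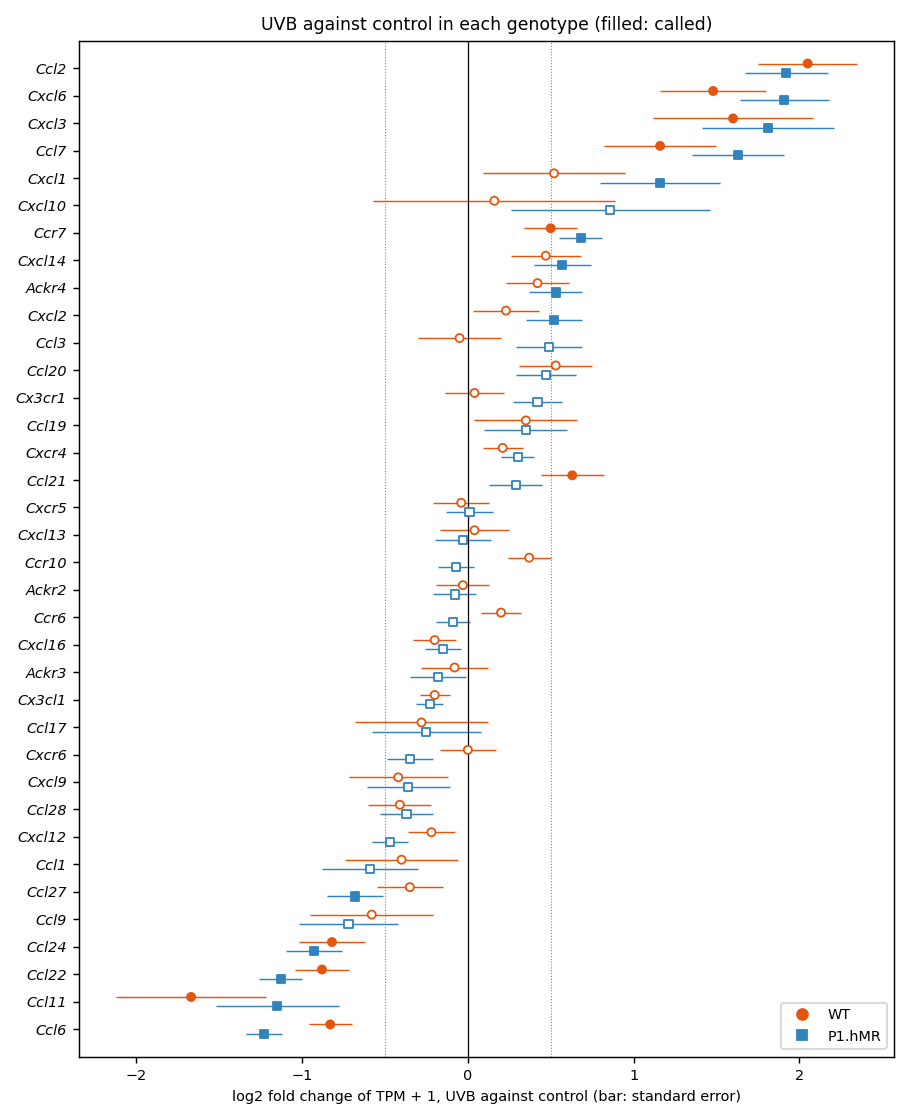
The plot sets the log2 fold change of UVB against control in WT rats (circles) beside that in P1.hMR rats (squares) for the 36 tested members, with bars for the SE, filled symbols for called genes and dotted lines at the threshold of 0.5. Ccl2, Cxcl6, Cxcl3 and Ccl7 lead in both genotypes, and Ccl6, Ccl11, Ccl22 and Ccl24 lie lowest.

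The Cxcl12 axis moved less. Cxcl12 was at 36.63, 45.0, 34.34, 39.32 and 41.22 TPM in Control P1.hMR and 28.24, 25.53, 28.39, 29.6 and 28.5 TPM in UVB P1.hMR rats, 2 groups that did not overlap. Its log2 fold change of -0.47 (SE 0.11, adjusted p = 0.00412, limma with Benjamini-Hochberg adjustment) missed the size threshold, and in WT rats the value was -0.22 (adjusted p = 0.278, same test). Cxcr4 had a value of 0.3 on the log2 scale in P1.hMR rats (adjusted p = 0.0277, same test), again under the size threshold, and of 0.21 in WT rats. The fractalkine pair gave -0.23 for the ligand Cx3cl1 and 0.42 for its receptor Cx3cr1 in P1.hMR rats, both with an adjusted p under 0.05 in limma and both under the size threshold.

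Ligands of epithelium went both ways. Cxcl14 stood at 119.77, 113.24, 120.35 and 127.58 TPM in Control WT and 235.1, 132.83 and 147.7 TPM in UVB WT rats. It was at 105.6, 105.09, 76.48, 138.34 and 117.5 TPM in Control P1.hMR and 126.48, 122.16, 177.01, 192.96 and 194.22 TPM in UVB P1.hMR rats. The WT groups were apart and the P1.hMR groups overlapped. On the log2 scale the change was 0.57 (SE 0.17, adjusted p = 0.0152, limma with Benjamini-Hochberg adjustment) in P1.hMR and 0.47 (SE 0.21, adjusted p = 0.122, same test) in WT rats. Without Control P1.hMR rat 3 the P1.hMR value was 0.46 and was not called, and without UVB WT rat 1 the WT value was 0.22.

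Ccl27, a keratinocyte ligand of Ccr10, was at 1.38, 0.99, 1.47 and 1.32 TPM in Control WT and 1.09, 0.9 and 0.46 TPM in UVB WT rats. Control P1.hMR rats had 1.61, 1.26, 0.7, 2.86 and 1.65 TPM and UVB P1.hMR rats 0.77, 0.54, 0.62, 0.46 and 0.5 TPM. In all, 1 control rat of each genotype lay within the range of its UVB group. Ccl27 passed the minimum for testing through control rats alone, so its call is a description. UVB against control gave a log2 fold change of -0.68 (SE 0.17, adjusted p = 0.00412, limma with Benjamini-Hochberg adjustment) in P1.hMR and -0.35 (SE 0.2, adjusted p = 0.234, same test) in WT rats. Ccl28, the second Ccr10 ligand, had -0.41 and -0.37 and was not called. Ccl20, an epithelial ligand of Ccr6, had 0.53 (SE 0.22, adjusted p = 0.0966, same test) in WT and 0.47 (SE 0.18, adjusted p = 0.0507, same test) in P1.hMR rats and was not called. Without Control WT rat 1, the highest control, the WT value of Ccl20 was 0.75 and passed, and without UVB P1.hMR rat 4 the P1.hMR value was 0.55 and passed. Of 4 keratinocyte markers (Krt5, Krt14, Krt10 and Krt1) none was called, but Krt14 missed only the size threshold, at 0.48 in WT (adjusted p = 0.0175, same test) and just under 0.5 in P1.hMR rats (adjusted p = 0.00204, same test), as did Krt1 at 0.45 in P1.hMR rats (adjusted p = 0.00869, same test). The part of keratinocytes in these ligands was not tested.

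The 21 members called in neither genotype had log2 fold changes from -0.58 to 0.53 in WT and from -0.72 to 0.86 in P1.hMR rats. They include complete ligand and receptor pairs. Cxcl13, which organises B cell follicles, had 0.04 in WT rats against -0.03 in P1.hMR rats, and its receptor Cxcr5 had -0.04 and 0.01. Cxcl16 had -0.2 and -0.15, while its receptor Cxcr6 had 0.0 and -0.35 (adjusted p = 0.062 in P1.hMR rats, limma with Benjamini-Hochberg adjustment). Ccl1, a ligand of Ccr8, had -0.4 and -0.59, and Ccr6 had 0.2 and -0.09. The top of the P1.hMR range was Cxcl10, whose value rested on 1 rat.

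Of the ligands of Cxcr3 that interferons induce, Cxcl9 and Cxcl10 were not called after UVB and Cxcl11 was below the minimum for testing. Cxcl10 stood at 1.55, 0.62, 0.54 and 1.12 TPM in Control WT, at 0.93, 0.24 and 3.11 TPM in UVB WT and at 0.44, 1.61, 0.59, 1.32 and 0.96 TPM in Control P1.hMR rats. In UVB P1.hMR rats it was at 1.73, 29.1, 1.47, 0.62 and 0.65 TPM. Rat 2 of that group stood far above all 16 other rats, which lay at or under 3.11 TPM. The same rat had the highest Cxcl11, at 4.14 TPM against 0.69 TPM at most in any other rat, and the highest Ccl12, at 2.96 TPM against 0.41 TPM at most. Cxcl9, the neighbour of Cxcl10 and Cxcl11 on chromosome 14, was at 1.58 TPM in that rat, within the range of the other rats. The interferon regulatory factor gene Irf1 was at 22.04 TPM there, within the range of the other UVB P1.hMR rats (19.42 to 25.47 TPM). The log2 fold change of Cxcl10 in P1.hMR rats was 0.86 (SE 0.6, adjusted p = 0.274, limma with Benjamini-Hochberg adjustment) with this rat and 0.09 (SE 0.3, adjusted p = 0.833, same test) without it.

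The upstream windows of Cxcl10 and Cxcl11 are shown because both genes were highest in this rat. They are Cxcl10 (chr14:15988816-15989065, plus strand) and Cxcl11 (chr14:15973478-15973727, plus strand) (RefSeq build GRCr8), with matches to the NF-kappaB consensus, the AP-1 site TGANTCA and the ISRE in capitals. From the left, Cxcl10 holds an ISRE match, an NF-kappaB match and an AP-1 match, and Cxcl11 an AP-1 and an NF-kappaB match. The window of Ccl12, also highest in this rat, held none of these motifs and is not shown.
Cxcl10: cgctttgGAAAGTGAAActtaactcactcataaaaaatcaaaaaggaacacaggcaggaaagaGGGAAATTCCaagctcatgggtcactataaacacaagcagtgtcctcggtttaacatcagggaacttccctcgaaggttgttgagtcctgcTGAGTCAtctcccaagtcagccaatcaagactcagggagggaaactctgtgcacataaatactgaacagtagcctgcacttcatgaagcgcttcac
Cxcl11: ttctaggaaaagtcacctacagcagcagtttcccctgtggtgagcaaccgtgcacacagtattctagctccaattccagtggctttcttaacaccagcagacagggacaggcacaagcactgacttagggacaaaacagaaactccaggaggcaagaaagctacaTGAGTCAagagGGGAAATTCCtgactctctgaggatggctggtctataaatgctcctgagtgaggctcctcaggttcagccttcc

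ISRE matches were in 3.29% of all promoters and in 2 of 40 members (5.0%), Cxcl10 and Ccl19, and AP-1 matches in 6.36% of all promoters and in 7 of 40 members (17.5%), namely Ccl7, Cxcl10, Cxcl11, Cxcl14, Ccr3, Cxcr6 and Xcr1. Ccl7 and Cxcl14, each with an AP-1 match, rose in P1.hMR rats, Cxcl10 and Cxcr6 were tested and not called, and Cxcl11, Ccr3 and Xcr1 were not tested.

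**Figure D4:**
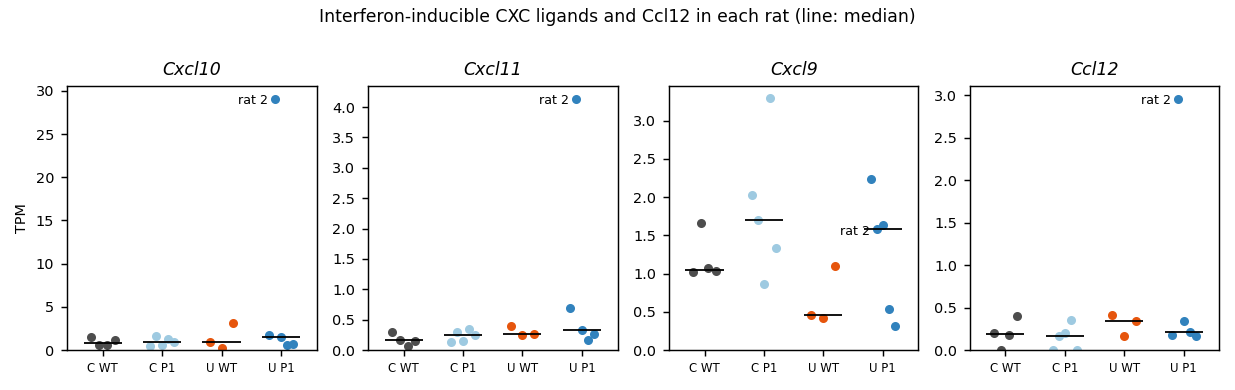
The panels plot TPM from 0 of Cxcl10, Cxcl11, Cxcl9 and Ccl12 in each rat by group, with the median as a line and UVB P1.hMR rat 2 marked. That rat stands apart for Cxcl10 (29.1 TPM), Cxcl11 (4.14 TPM) and Ccl12 (2.96 TPM) and not for Cxcl9 (1.58 TPM).

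The genotypes were compared to ask whether the transgene alters chemokine expression by itself or under UVB. Without UVB, limma called no member at an adjusted p under 0.05, beside 0.00763% of all genes, and 1 member had an unadjusted p under 0.05, beside 4.03%. It was Ccl17, at 0.41, 0.79, 1.52 and 1.06 TPM in Control WT and 1.77, 3.44, 0.42, 5.35 and 2.88 TPM in Control P1.hMR rats. The groups overlapped through Control P1.hMR rat 3. The log2 difference was 0.82 with a 95% interval from 0.08 to 1.56 (adjusted p = 0.998, limma with Benjamini-Hochberg adjustment), and the two-sided exact permutation test gave p = 0.0952 where the smallest possible is 0.0159. Next came Cxcr4 at -0.22 and Ccl21 at 0.34. No member's groups were apart, beside 1.03% of all genes.

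Under UVB, limma again called no member between genotypes, beside 0.0229% of all genes, and 3 had an unadjusted p under 0.05, beside 10.3%. Ccr10 was at 2.23, 3.09 and 3.1 TPM in UVB WT and at 1.74, 2.0, 1.95, 1.55 and 2.1 TPM in UVB P1.hMR rats, and the groups did not overlap. Its log2 difference was -0.4 with a 95% interval from -0.66 to -0.14 (adjusted p = 0.286, limma with Benjamini-Hochberg adjustment), and the exact permutation p was 0.0357. Ccl17 was higher in UVB P1.hMR rats by 0.85 (95% interval 0.05 to 1.66, adjusted p = 0.454, same test), and its groups overlapped. Ccl3 followed with 0.5 (adjusted p = 0.481, same test). Cxcl2 was the other member whose groups were apart, with all 5 UVB P1.hMR rats above the 3 UVB WT rats, although its log2 difference of 0.37 had an adjusted p of 0.53 in limma. Non-overlap held for 5.87% of all genes, and 0.0357 is the smallest p that the exact permutation test allows for 3 against 5 rats.

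The interaction asks whether the response to UVB differed between genotypes. At an adjusted p under 0.05 limma called no member, beside 0.0% of all genes, and 2 had an unadjusted p under 0.05, beside 6.92%, namely Ccr10 and Ccl6. The log2 fold change of Ccr10 was 0.37 in WT rats (adjusted p = 0.0504, limma with Benjamini-Hochberg adjustment), just short of a call by p and under the size threshold, and -0.07 in P1.hMR rats. The difference was -0.44 with a 95% interval from -0.8 to -0.09 (adjusted p = 0.704, limma interaction with Benjamini-Hochberg adjustment). Ccr6 came next, with a difference of -0.3. The intervals of the strongest responders were wide, from -0.97 to 0.71 for Ccl2, from -0.48 to 1.41 for Ccl7 and from -1.11 to 1.54 for Cxcl3, and those of Ccl2 and Cxcl3 spanned 0.5 in both directions. Of the 9 members called in both genotypes, 7 had a larger absolute change in P1.hMR rats, a count that was not tested.

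**Figure D5:**
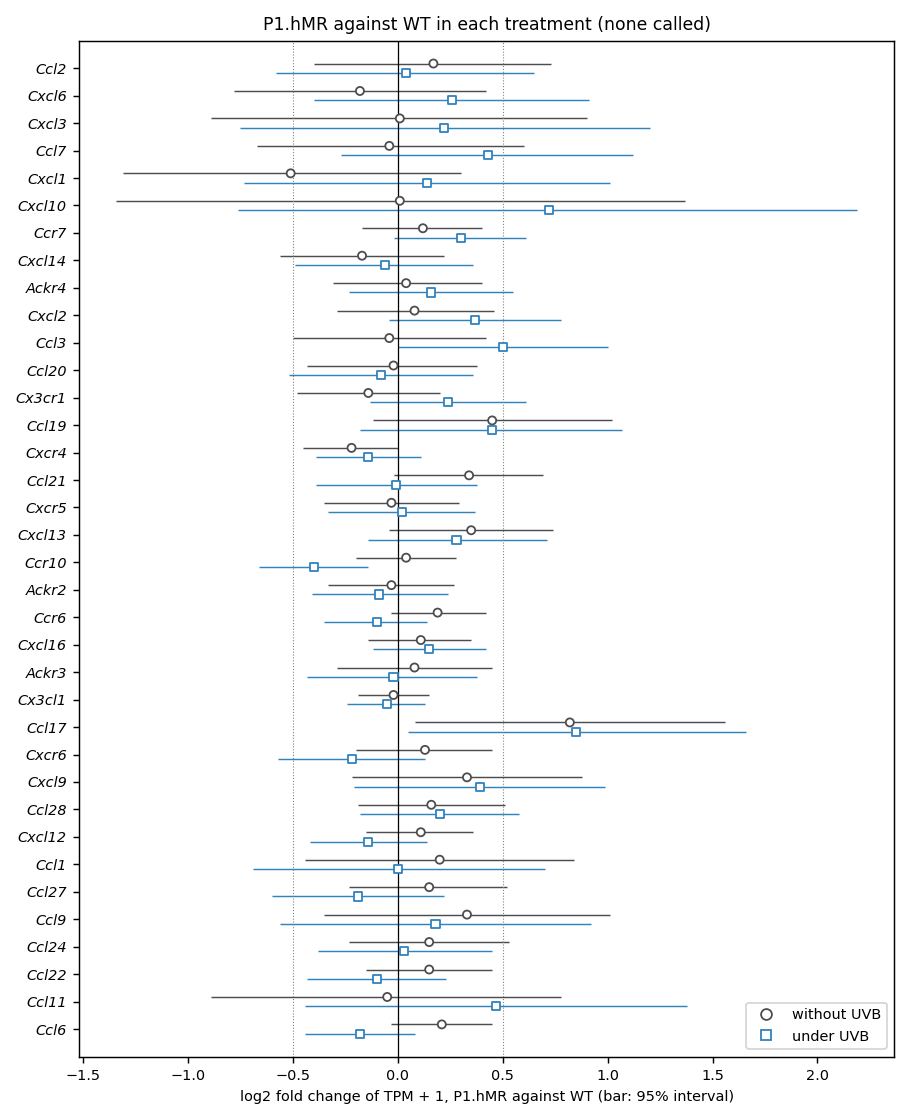
The plot gives the log2 difference of P1.hMR against WT rats without UVB (circles) and under UVB (squares) for the 36 tested members, in the order of the UVB response, with 95% intervals. No member was called, and Ccl17 lies to the right of 0 in both treatments and Ccr10 to the left under UVB.

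Other genes of the pathway, from lists outside the symbol rule, were counted alongside. Their counts stand beside 7.91% of all genes called after UVB in WT rats and 10.8% in P1.hMR rats. Of 4 tested chemoattractants and receptors with other symbols, Pf4 (the platelet chemokine Cxcl4) and Rarres2 (chemerin) were called higher in both genotypes, Pf4 with log2 fold changes of 2.0 and 1.96 and Rarres2 with 1.15 and 1.16. Of 13 tested upstream cytokines and transcription factors, Irf1 was lower in both genotypes (-0.7 and -0.84), and in P1.hMR rats Il1b was higher (1.35) and Nfkbiz lower (-0.55). Among 18 tested genes of receptor signalling, Grk5, a kinase that desensitises receptors, was higher in both (0.57 and 0.61) and Rgs16, which ends G protein signalling, was lower in P1.hMR rats (-0.51). Of 8 tested adhesion genes, 3 were higher in both genotypes, the endothelial selectins Sele (1.09 and 1.52) and Selp (1.37 and 1.56) and Icam1 (0.77 and 0.73). None of these 4 lists had a called gene between genotypes.

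Markers of further cell types gave the following counts after UVB, again beside 7.91% of all genes in WT and 10.8% in P1.hMR rats. Of the 8 meibocyte genes, Awat2, a wax synthase, was called lower in both genotypes (log2 fold changes -0.65 and -0.52), from 11600 ± 597 TPM (n = 4) to 7380 ± 394 TPM (n = 3) in WT rats, and Elovl3, a fatty acid elongase, higher in both (0.55 and 0.77). Their summed level was 18800 to 22400 TPM in Control WT against 15700 to 16500 TPM in UVB WT rats, without overlap, and 17000 to 20100 TPM in Control P1.hMR against 14600 to 17500 TPM in UVB P1.hMR rats, with overlap. Awat2 was the largest part of these sums. Among T cell markers, Cd8a and Cd2 were called higher in both genotypes, 2 of 4 tested, and Cd8a was the 1 marker of any list called between genotypes, where it stood 0.89 higher on the log2 scale in UVB-exposed P1.hMR rats than in their WT counterparts (adjusted p = 0.0364, limma with Benjamini-Hochberg adjustment). Cd8a was at 0.64 TPM at most in control rats and passed the minimum through UVB rats alone, so its calls after UVB are a description. Cd3e, a defining T cell gene, was not called and lay between 0.74 and 3.29 TPM in all rats. The summed T cell list ran from 4.58 to 10.7 TPM in controls and from 6.36 to 14.3 TPM in UVB rats. Mast cell genes were higher for Cpa3 in both genotypes and Cma1 in P1.hMR rats, of 3 tested. Of 4 tested endothelial genes Vwf was higher in both. Fibroblast genes Lum, Pdgfra and Dcn were higher in both and Col1a1 lower in P1.hMR rats, of 5. Skeletal muscle (5 tested) and B cells (1 tested) had no called gene. The part of these cell types in the chemokine changes was not tested.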

How the data were processed

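The authors deposited 1 table of TPM (a length-corrected share of transcripts), written with decimal commas, with 1 column per sample and 17251 genes, and columns summing to between 804378 and 840817 TPM. The paper's methods name STAR and RSEM on rn7, while the submitters' processing notes list FastQC, Trimmomatic, DRAGEN and Picard on rn7, so the tool behind these values is uncertain. A count test could not be run, and depth per sample is unknown. Groups came from the sample labels. R 4.3.3 with limma 3.58.1 fitted log2(TPM + 1) over 13105 genes (1 TPM in at least 3 rats) with a mean for each of 4 groups and a variance trend, for 5 comparisons. The interaction was called on the adjusted p alone. limma p-values are two-sided. On simulated data, 92% to 95% of log2 changes of 1 and 99% to 100% of changes of 2 were recovered over 13105 genes. The changed genes were drawn at random from all tested genes. These shares do not carry over to members with a wide spread, such as Cxcl3 (interaction SE 0.63) and Cxcl10 (0.95). Two-sided exact permutation tests compared single members (Python 3.11.15, scipy 1.17.1).

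Named were each called member, members the study names, the 3 highest by role, and the 3 with the smallest p per genotype comparison and interaction. Receptor pairs, Cxcl10, Ccl12, Cxcl9, Ccl19, Ccl28, Ccl9, Cxcl12 in detail, Cx3cr1 and per-rat Irf1 were named after their values were seen. By rule 53 genes were members, of which 1, with a gene of another list, is not reported here. Members and lists were chosen with earlier results of these data known. Neighbours and promoters came from RefSeq (GRCr8), with 40 of 52 members matched. The fits were repeated with a pseudocount of 0.1, without a filter, with a mean of at least 5 TPM, with quantile and median-of-ratios normalization, only the groups compared, no trend, array weights, a replicate block, a muscle covariate, other fold thresholds and each rat left out.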

Additional observations from a re-analysis of the deposited data

Results flagged for a closer look

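Within groups of 4 or 5 rats, a rat was marked where its gap to the nearest other rat took an unusually large share of the group's range (Dixon's 95% criterion). Over 38 members, 114 groups were examined and 5 values were marked, where chance marks about 1 in 20 groups, and the 3 UVB WT rats were too few to examine. Of the 5 values, 3 were in UVB P1.hMR rat 2. The 38 were the 36 tested members with Ccl12 and Cxcl11, which lay below the minimum for testing. No other untested member was examined, and both additions were marked in that rat. The number of marks can therefore not be set against the chance rate.

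In UVB P1.hMR rat 2, Cxcl10 was at 29.1 TPM against 0.62 to 1.73 TPM in the other 4 rats of the group. Cxcl11 was at 4.14 TPM there against 0.16 to 0.69 TPM, and Ccl12 at 2.96 TPM against 0.17 to 0.34 TPM. Ccl21 was at 194.83 TPM in UVB P1.hMR rat 4 against 150.54 to 158.89 TPM in the others. Cxcl9 was at 1.66 TPM in Control WT rat 2 against 1.02 to 1.07 TPM in the other 3 Control WT rats.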

How the results depend on the processing

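The number of called members moved by over 1.5 times in few settings. In WT rats it was 4 with a mean of at least 5 TPM, 6 with only the groups compared and 5 with the fold threshold raised to 1 on the log2 scale, against 10. In P1.hMR rats it was 5 and 8 with the first and last of these, against 14. The stricter filter tested fewer members. With each rat left out in turn the number ran from 6 to 10 in WT, lowest without UVB WT rat 1, and from 12 to 15 in P1.hMR rats, and from 0 to 0 in both genotype comparisons and the interaction, which stayed at 0 in the other settings too. The values recomputed were those of called members, of members the study names and of the 3 with the smallest p per genotype comparison and interaction, and none changed sign. Uncalled WT values also rested on single rats, with Cxcl2 at 0.13 without Control WT rat 1 and Ccl27 at -0.2 without UVB WT rat 3. In settings other than leaving out a rat or moving the fold threshold, and where the gene was tested, all 131 values of called members in P1.hMR rats stayed called, against 83 of 94 in WT rats, where Ccl21, Ccl7, Ccr7 and Cxcl3 were not called with only the groups compared. Scaling moved the median of all genes by less than 0.1.

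Deviations of same-numbered rats had correlations from -0.187 to 0.235. Those between the control groups were all positive, from 0.042 to 0.235, and each other comparison held both signs. Such correlations cannot exclude a pairing by number, and the rats were fitted as unpaired. With the replicate number as a block, 7 members were called in WT rats, 15 in P1.hMR rats and 0 in each genotype comparison and the interaction. The block ended the WT calls of Ccl21, Ccl7 and Cxcl3. TPM keeps no depth, so counting error is unknown.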

Other observations

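The summed level of all 34 ligands was 414, 473, 509 and 489 TPM in Control WT rats and 714, 449 and 478 TPM in UVB WT rats. UVB WT rat 1 had the highest sum of all 17 rats. It also had the highest value within its group for 7 of the 10 members that rose in either genotype. In Control P1.hMR rats the sums were 481, 561, 449, 564 and 506 TPM, and in UVB P1.hMR rats 465, 523, 561, 611 and 568 TPM. The sums of treated and control rats overlapped in both genotypes. In UVB P1.hMR rats, rat 1 had the lowest value for 6 of those 10 members.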
